A study of Mus musculus with 6 samples.

Results

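Lipolysis is the stepwise release of fatty acids and glycerol from the triglyceride stored in lipid droplets. RNA levels of 7 genes of this process were followed in irradiated and control cultures of mouse mesenchymal stem cells: the lipase genes Pnpla2, Pnpla3, Lipe and Mgll, the cofactor and inhibitor genes Abhd5 and G0s2, and the glycerol channel gene Aqp7. Probe sets were taken where the platform annotation gives exactly 1 of these symbols. That rule finds 15 of the 45037 probe sets tested, for all 7 genes, of 18193 genes that have a single-gene probe set.

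Mouse mesenchymal stem cells, stromal cells able to form bone, cartilage or fat, came from a commercial source and were measured on Affymetrix expression arrays. The 3 irradiated cultures received 2 h of pulsed broadband terahertz radiation, as 35 fs pulses near 10 THz repeated at 1 kHz, averaging 1 mW/cm2. Each of the 3 control cultures stood next to its irradiated partner without exposure, 1 pair in each of 3 independent experiments. Both arms were kept at 26 to 27 °C and shared a medium with dexamethasone (1 µM), IBMX (100 µM), which blocks phosphodiesterases, insulin (5 µg/ml) and rosiglitazone (1 µM), added again 48 h before exposure. RNA was taken directly after exposure. Strain, sex and age of the source animals are not given in the labels.

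In fat cells, ATGL (encoded by Pnpla2) removes the first fatty acid from triglyceride, hormone-sensitive lipase (Lipe) cleaves the resulting diacylglycerol, and monoacylglycerol lipase (Mgll) releases the last fatty acid and glycerol. ABHD5, also called CGI-58, activates ATGL, and G0S2 inhibits it. Glycerol leaves the fat cell through the channel aquaporin-7 (Aqp7). Cyclic AMP and protein kinase A switch the pathway on by phosphorylating perilipin and hormone-sensitive lipase, and insulin restrains it. The shared medium holds agents that touch both sides, since IBMX raises cyclic AMP and insulin lowers it, while rosiglitazone activates the fat-cell regulator PPARγ.

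All levels are RMA log2 values of a probe set. Each difference is the irradiated level minus the control level in log2 units, given ± its SE from the limma fit (n = 3 pairs). A gene with several probe sets is led by the one with the highest mean level, and levels of different probe sets are not compared with each other. The median probe set had a mean level of 4.84. The cultures had fat-cell transcripts in both arms, with 8 of 8 measured adipocyte markers at or above that median. They had macrophage and leukocyte transcripts as well, with 12 of 12 markers at or above it, and 6 of 7 mesenchymal stromal markers, with Thy1 below. Of 7 endothelial markers only Kdr was at or above it, and the skeletal muscle and osteoblast lists had 4 of 6 and 3 of 4 there. Lying at or above the median is no test of detection. Mean levels ran from 6.81 (Retn) to 14.41 (Fabp4) for adipocyte and from 7.56 (Itgam) to 14.21 (Lyz2) for macrophage markers. The highest skeletal muscle marker, Des, was at 5.82. Hybridization spike-in controls averaged 11.40 in control culture 3 and 10.82 to 10.99 on the other 5 arrays.

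Of the 7 leading probe sets, 6 were lower in the irradiated culture of every pair, and the exception was G0s2. The leading differences ran from -0.50 for Aqp7 to -0.08 for Pnpla3, with a median of -0.28, against a median of 0.0033 over all probe sets. Of all 45037 probe sets, 21458 had negative and 23007 positive differences. Pair medians of the 7 genes were -0.43, -0.23 and -0.17 in experiments 1, 2 and 3. By limma, 0 of the 15 probe sets passed an adjusted p of 0.05, and the share called over all probe sets was 0%, with 2237 of them at an unadjusted p under 0.05 in either direction. Lower in all 3 pairs were 9 of the 15 probe sets, against 11.2% of all probe sets. An unadjusted p under 0.05 by limma on the lower side was seen for 6 of the 15, both Pnpla2 and both Aqp7 probe sets and the leading ones of Lipe and Mgll, against 2.38% of all. Probe sets of 1 gene share their transcript, so the 15 are not independent of each other. The members were chosen with earlier results of these data known, so setting these counts beside the shares of all probe sets is description only.

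**Figure D1:**
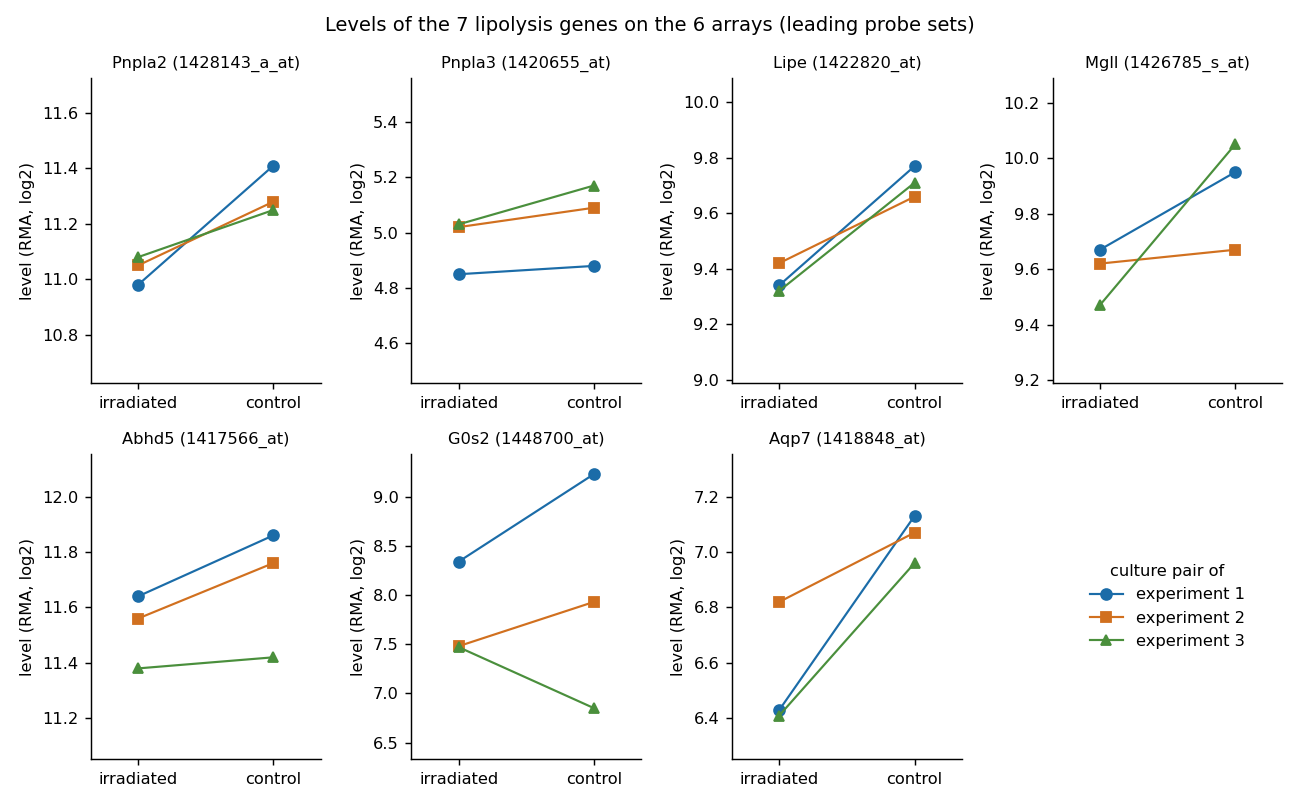
Level (RMA, log2) of the leading probe set of each of the 7 genes on the 6 arrays, irradiated on the left and control on the right of each panel, with a line joining the cultures of 1 experiment. All axes span the same width except that of G0s2, which is wider. Irradiated arrays lie below control arrays without overlap for Pnpla2, Lipe and Aqp7, and the G0s2 lines run in both directions.

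Pnpla2, the gene of the first lipase, was read by a pair of probe sets. Its leading probe set (1428143_a_at) stood at 10.98, 11.05 and 11.08 in irradiated cultures 1, 2 and 3, against 11.41, 11.28 and 11.25 in control cultures 1, 2 and 3. Every irradiated array was below every control array, and the irradiated arrays lay closer together than the controls. The fitted difference was -0.28 ± 0.09, with a 95% interval from -0.49 to -0.07 (limma, adjusted p = 0.929). The other probe set (1428591_at) stood at 7.16, 7.0 and 6.90 in irradiated cultures, against 7.59, 7.22 and 7.01 in controls. It too was lower in each pair, by 0.43, 0.22 and 0.11 in experiments 1, 2 and 3, but the groups overlapped, with irradiated culture 1 above control culture 3. Its fitted difference of -0.25 ± 0.09 was close to that of the leading probe set (limma, adjusted p = 0.929).

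Pnpla2 is shown with the window from 250 bases before to 50 bases after its RefSeq start, chr7:141454938-141455237 on the plus strand of GRCm38.p6, since its leading probe set is 1 of the 3 leading ones with all irradiated arrays below all controls. Each window was searched on both strands for 3 motifs, which are printed in capitals in all windows shown. They are the nuclear receptor hexamer AGGTCA, held by 16.3% of the 32851 RefSeq windows of this length, the E-box CACGTG (7.15%) and the core TGACG of the cyclic AMP response element (20.8%). None of these letters occurs in the Pnpla2 window.
Pnpla2: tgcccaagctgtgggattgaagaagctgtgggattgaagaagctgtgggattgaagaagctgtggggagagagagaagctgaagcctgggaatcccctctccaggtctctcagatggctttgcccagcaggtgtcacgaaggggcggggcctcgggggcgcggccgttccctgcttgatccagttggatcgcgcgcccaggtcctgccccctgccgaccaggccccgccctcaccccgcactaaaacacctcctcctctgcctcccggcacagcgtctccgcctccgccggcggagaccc

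Lipe, which encodes hormone-sensitive lipase, had the highest share of its variation between arms. Its leading probe set (1422820_at) stood at 9.34, 9.42 and 9.32 in irradiated cultures 1, 2 and 3, against 9.77, 9.66 and 9.71 in control cultures. The arms did not overlap, and arrays within an arm differed by little, with 9.36 ± 0.05 in irradiated and 9.71 ± 0.06 in control cultures (SD, n = 3 each). Pair differences were -0.43, -0.24 and -0.39 in experiments 1, 2 and 3. The fitted difference was -0.35 ± 0.08, which is 0.783 times the control level, with a 95% interval from -0.55 to -0.16 (limma, unadjusted p = 0.0045, adjusted p = 0.929). Of the sum of squares over the 6 arrays, 94.1% lay between arms and 0.8% between experiments. The second Lipe probe set (1432180_at) stood at 3.06, 3.18 and 2.87 in irradiated cultures, against 2.84, 2.73 and 2.94 in controls. This dim probe set, below the median on every array, had the opposite sign in 2 of 3 pairs and a fitted difference of 0.20 ± 0.11 (limma, adjusted p = 0.929). With the mean of both probe sets in place of the leading one, Lipe was at -0.08 (limma, unadjusted p = 0.392).

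RefSeq gives Lipe 2 start windows, and the upstream one, chr7:25395938-25396237 on the minus strand of GRCm38.p6, holds an E-box that begins 155 bases before the start. The other window, chr7:25390063-25390362, holds none of the 3 motifs. The arrays do not tell which start was used. The upstream window is printed because it carries the motif.
Lipe: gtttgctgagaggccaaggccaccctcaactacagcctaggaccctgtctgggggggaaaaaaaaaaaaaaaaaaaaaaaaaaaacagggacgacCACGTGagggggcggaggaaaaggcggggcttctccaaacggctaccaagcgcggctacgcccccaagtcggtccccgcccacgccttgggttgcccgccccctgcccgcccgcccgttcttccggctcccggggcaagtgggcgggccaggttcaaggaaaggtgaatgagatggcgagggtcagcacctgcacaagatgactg

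Mgll, which encodes monoacylglycerol lipase, differed mainly in experiments 1 and 3. Its leading probe set (1426785_s_at) stood at 9.67, 9.62 and 9.47 in irradiated cultures 1, 2 and 3, against 9.95, 9.67 and 10.05 in control cultures. Irradiated culture 1 and control culture 2 had the same level, so the arms touched. The pair differences were -0.28, -0.05 and -0.58, and the fit gave -0.30 ± 0.11 (limma, adjusted p = 0.929). Probe sets 1450391_a_at and 1453836_a_at followed it closely over the 6 arrays (Pearson r = 0.97 and 0.96), with fitted differences of -0.28 ± 0.12 and -0.26 ± 0.14. In experiment 3 all 3 of these probe sets had their largest difference, from -0.63 to -0.58. Control culture 3, the upper array of that pair, had higher spike-in signal than the other 5 arrays, and its part in the result was not tested. Without replicate 3 the leading difference was -0.17 (limma), against -0.30 with all pairs. The fourth probe set (1431331_at) stood at 4.84, 4.99 and 4.87 in irradiated cultures, against 4.70, 4.49 and 4.83 in controls. Near the median level, it ran the other way, higher in all 3 pairs and without overlap of the arms, at 0.23 ± 0.11 (limma, adjusted p = 0.929). With the mean of its 4 probe sets, Mgll was at -0.16 (limma, unadjusted p = 0.216). All irradiated arrays above all control arrays held for 3.63% of all probe sets, and higher in all 3 pairs for 12.6%.

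Pnpla3, a paralog of Pnpla2 whose product also sits on lipid droplets, had a level near the median probe set. Its probe set (1420655_at) stood at 4.85, 5.02 and 5.03 in irradiated cultures 1, 2 and 3, against 4.88, 5.09 and 5.17 in control cultures. The arms overlapped, and each irradiated culture was below its own control by a small amount. The fitted difference was -0.08 ± 0.08, with a 95% interval from -0.27 to 0.11 (limma, adjusted p = 0.945). Its start window holds the cyclic AMP element core on both strands, with matches that begin 46 and 43 bases before the start and overlap.

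Among the regulators of ATGL, the activator Abhd5 had small differences between arms. Its leading probe set (1417566_at) stood at 11.64, 11.56 and 11.38 in irradiated cultures 1, 2 and 3, against 11.86, 11.76 and 11.42 in control cultures. The arms overlapped, and both arrays of experiment 3 were the lowest of their arm. The fitted difference was -0.15 ± 0.08 (limma, adjusted p = 0.929). Probe set 1417565_at followed the leading one over the 6 arrays (Pearson r = 0.95) and had a difference of -0.05 ± 0.08. The dim probe set 1447548_at lay between 2.45 and 2.61 on all arrays, with a difference of -0.03 ± 0.08. The mean of the 3 probe sets gave -0.08 (limma, unadjusted p = 0.262). For each of the 3 the 95% interval lay inside 1.5-fold in both directions. The Abhd5 start window holds the hexamer 69 and the cyclic AMP element core 128 bases before the start, and 1 of the Mgll windows an E-box 44 bases before it.

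G0s2, the inhibitor of ATGL, had the widest spread of the 7 genes over the arrays. Its probe set (1448700_at) stood at 8.34, 7.48 and 7.47 in irradiated cultures 1, 2 and 3, against 9.23, 7.93 and 6.85 in control cultures. The irradiated culture was lower in experiments 1 and 2 and higher in experiment 3, with pair differences of -0.89, -0.45 and 0.62, and the arms overlapped. The fitted difference of -0.24 ± 0.27 had a 95% interval from -0.89 to 0.41 (limma, adjusted p = 0.95), and without replicate 1 it was 0.085. With 1 pair per experiment, whether the arms differed unequally between experiments could not be tested.

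The start window of G0s2, chr1:193273139-193273438 on the minus strand of GRCm38.p6, is shown because its level differed most between experiments. A cyclic AMP element core begins 246 bases before the start, read as CGTCA on the printed strand.
G0s2: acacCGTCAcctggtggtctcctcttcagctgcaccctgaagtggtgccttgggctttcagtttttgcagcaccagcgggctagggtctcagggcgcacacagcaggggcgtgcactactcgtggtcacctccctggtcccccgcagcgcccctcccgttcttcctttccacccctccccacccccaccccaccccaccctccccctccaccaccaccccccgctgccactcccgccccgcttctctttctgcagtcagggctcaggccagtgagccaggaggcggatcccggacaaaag

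Aqp7, the glycerol channel gene, had the largest difference between arms of the 7 leading probe sets. The leading probe set (1418848_at) stood at 6.43, 6.82 and 6.41 in irradiated cultures 1, 2 and 3, against 7.13, 7.07 and 6.96 in control cultures. The arms did not overlap, with the irradiated cultures of experiments 1 and 3 well below the controls and that of experiment 2 nearest to them. The fitted difference was -0.50 ± 0.11, which is 0.707 times the control level, with a 95% interval from -0.76 to -0.24 (limma, unadjusted p = 0.0030, adjusted p = 0.929). The second probe set (1418849_x_at) stood at 6.43, 6.08 and 6.06 in irradiated cultures, against 6.91, 6.57 and 6.28 in controls. It was lower in every pair, though control culture 3 was below irradiated culture 1, and its difference was -0.40 ± 0.09 (limma, adjusted p = 0.929). Probes of an _x_at set may also bind other transcripts, so its value is less certain. All irradiated arrays below all control arrays was seen for 3 of the 15 probe sets, the leading ones of Pnpla2, Lipe and Aqp7, and for 3.1% of all probe sets.

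RefSeq gives Aqp7 2 start windows that overlap, and both hold the nuclear receptor hexamer, read as TGACCT on the printed strand. The downstream one, chr4:41047913-41048212 on the minus strand of GRCm38.p6, holds it at 223 and 101 bases before its start. It is printed because it contains the match of the other window too.
Aqp7: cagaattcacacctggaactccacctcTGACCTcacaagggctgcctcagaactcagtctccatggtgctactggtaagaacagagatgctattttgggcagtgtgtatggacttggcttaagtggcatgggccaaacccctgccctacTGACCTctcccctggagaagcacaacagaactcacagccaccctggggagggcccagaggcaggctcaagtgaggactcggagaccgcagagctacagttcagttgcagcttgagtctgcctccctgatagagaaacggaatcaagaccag

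**Figure D2:**
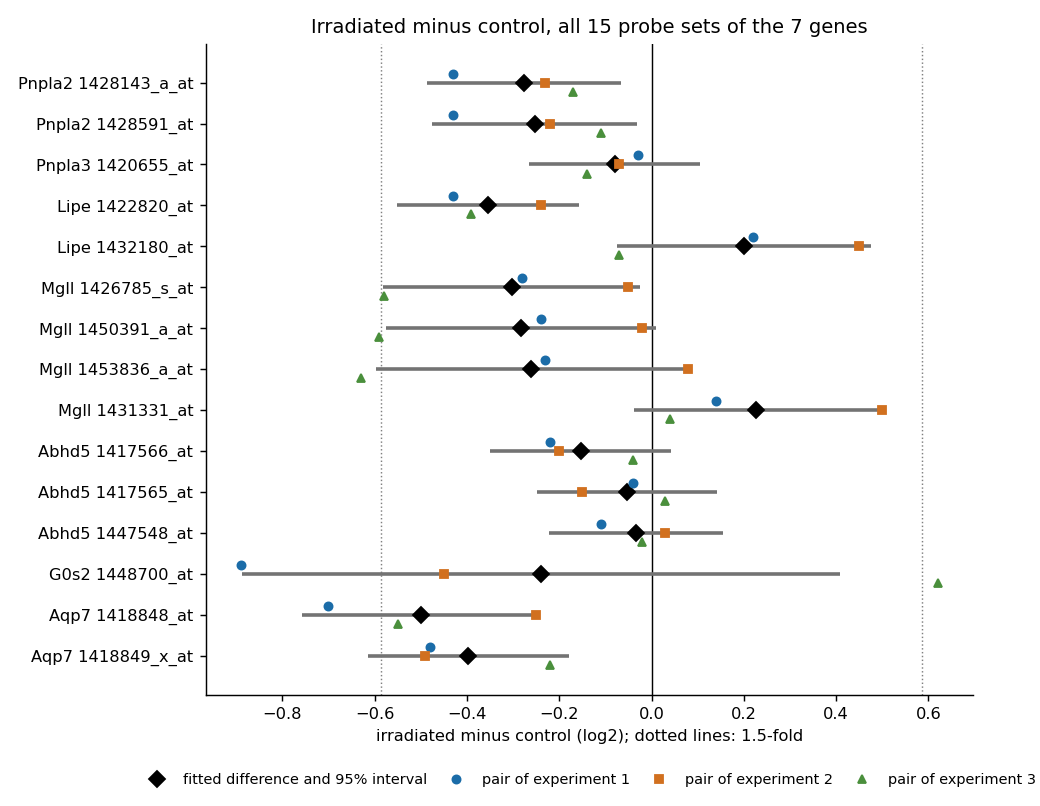
Irradiated minus control difference (log2) for all 15 probe sets, with the fitted value and its 95% interval as a diamond and bar and the 3 pair differences as coloured points. Dotted lines mark 1.5-fold. Of the 15 fitted values 13 are negative, and the 2 positive ones belong to the dimmer probe sets of Lipe and Mgll.

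The 95% interval lay inside 2-fold in both directions for all 15 probe sets and inside 1.5-fold for 11. The 4 exceptions were G0s2, both Aqp7 probe sets and 1453836_a_at of Mgll. Missing the threshold does not show that the arms were alike. With 3 pairs, an exact permutation test of the signs has a smallest two-sided p of 0.25, so it was not used for single genes. Of the 7 genes, Lipe, Pnpla2 and Aqp7 ran together over the 6 arrays, with Pearson r of 0.94 for Lipe with Pnpla2, 0.93 for Lipe with Aqp7 and 0.87 for Pnpla2 with Aqp7. These are the genes whose leading probe sets had arms without overlap. Other pairs came near these values, with r of 0.86 for Abhd5 with G0s2, -0.83 for Pnpla3 with G0s2 and 0.83 for Lipe with Mgll. These points share the arms and the experiments, and the values are descriptions.

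Fat-cell markers had negative and macrophage markers positive differences beside those of the lipolysis genes. All 8 measured adipocyte markers had negative differences with a median of -0.14, and their mean level was 10.88 to 10.94 in irradiated cultures and 11.02 to 11.15 in controls. All 12 macrophage and leukocyte markers were on the positive side (median 0.08), and their mean level was 10.91 to 11.01 in irradiated cultures and 10.72 to 10.92 in controls. Leaving out 1 experiment, the adipocyte count stayed at 8 of 8 and the median was -0.0775 without replicate 2 and -0.2025 without replicate 3. The macrophage count was 10 of 12 with a median of 0.06 without replicate 3, and the median was 0.13 without replicate 1. The summed linear level of the adipocyte markers was 52640 to 54475 in irradiated cultures and 55324 to 60592 in controls, and that of the macrophage markers was 47170 to 48773 in irradiated cultures and 42946 to 47871 in controls. Cidec, Fabp4 and Lpl stand both among these adipocyte markers and in lists described next. By limma 0 markers of either list passed. Positive differences were also seen for 6 of 7 endothelial markers (median 0.07), though only 1 of these markers reached the median level. They were seen for 4 of 7 mesenchymal stromal (0.04), 3 of 6 skeletal muscle (0.03) and 1 of 4 osteoblast markers (-0.045). A positive median was thus not particular to macrophage markers. The part of the marker shifts in the lipolysis differences was not tested, and in bulk cultures fewer fat cells and less RNA per fat cell cannot be told apart.

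Other genes of the pathway had medians closer to 0 than the 7 members. Members and lists were chosen with earlier results of these data known, so this contrast is description only. Hcar1 of these lists had a larger difference than any of the 7 leading probe sets. Of 20 measured genes of lipolysis signalling, 16 were on the negative and 3 on the positive side (median -0.04), and by limma 0 passed. Over all 45037 probe sets, 21458 were negative and 23007 positive, which holds beside the sign counts of each list. The lactate receptor gene Hcar1, which restrains lipolysis, was at -0.56 ± 0.08, the protein kinase A regulatory subunit gene Prkar2b at -0.17 ± 0.08 and the niacin receptor gene Hcar2 at -0.14 ± 0.09. Adrb1, Adrb3, Adra2a and Adora1 were not analysed here.

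Among genes of lipid droplet and associated proteins, 10 of 11 had negative differences, with a median of -0.08, and 0 passed by limma. Cidec, which enlarges droplets, was at -0.48 ± 0.09, the coat gene Plin4 at -0.41 ± 0.09 and Cidea at -0.27 ± 0.09, the last with levels below the median probe set. Hilpda, whose product also inhibits ATGL, was at -0.18 ± 0.11. Plin1 was not analysed here.

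The other acylglycerol hydrolases had 10 negative and 6 positive differences among 16 genes, with a median of -0.02 and 0 past the test. The phospholipase gene Pnpla8 was at -0.14 ± 0.08 and the carboxylesterase genes Ces1f and Ces1d, both below the median level, were at -0.15 ± 0.09 and 0.13 ± 0.09. In glycerol and fatty acid handling 9 of 12 genes were negative, with a median of -0.08 and 0 past the test. The fatty acid transporter Cd36 was at -0.21 ± 0.09, the channel gene Aqp9, below the median level, at -0.20 ± 0.08, and the acyl-CoA synthetase gene Acsl5 at 0.20 ± 0.08.

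**Figure D3:**
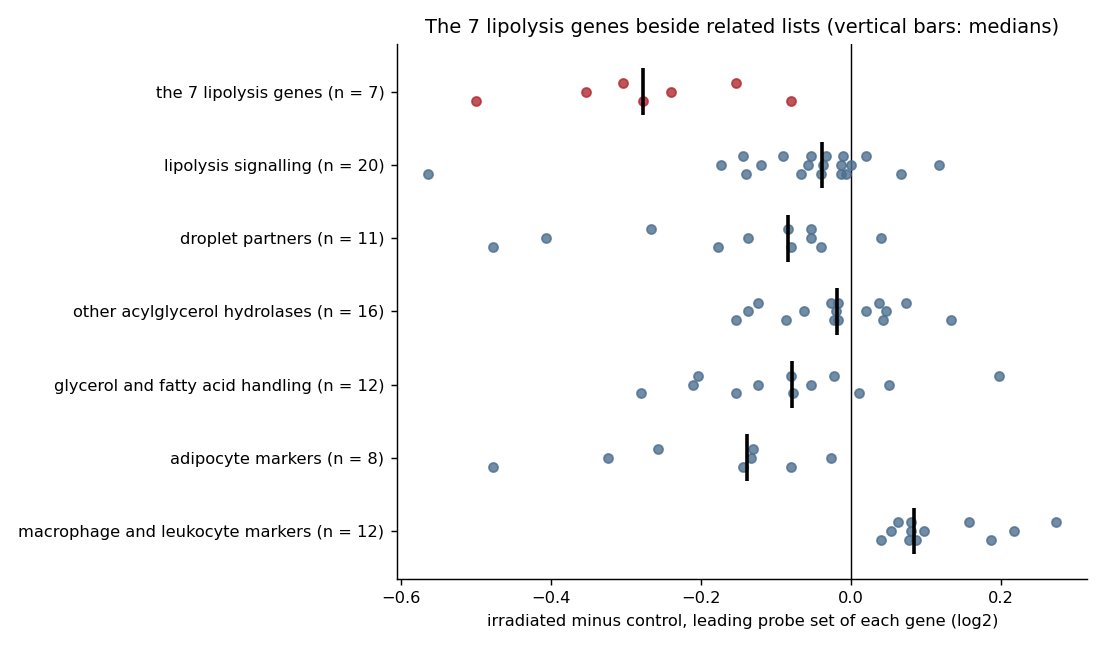
Irradiated minus control difference (log2) of the leading probe set of each gene, as points, for the 7 lipolysis genes and 6 related lists, with the median of each as a vertical bar. The median of the 7 genes is -0.28, those of the 4 pathway lists lie between -0.08 and -0.02, and the adipocyte and macrophage markers lie at -0.14 and 0.08. Members and lists were chosen with earlier results of these data known.

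Between experiments the 7 genes split, with Lipe and the leading Pnpla2 probe set nearly level and G0s2, Abhd5 and Pnpla3 apart. The mean of the irradiated and control array of G0s2 was 7.16 for experiment 3, 7.71 for experiment 2 and 8.79 for experiment 1. Both cultures of experiment 1 were above all 4 others. Experiment 3 minus experiment 1 was -1.63 ± 0.33, or 0.324 times, with a 95% interval from -2.42 to -0.83 (limma, adjusted p = 0.0613), and experiment 2 minus experiment 1 was -1.08 ± 0.33 (limma, adjusted p = 0.354). Experiments 3 and 2, neighbours in this order, differed by -0.55 ± 0.33 with an interval that includes 0. With an intensity trend in the variance prior, experiment 3 minus experiment 1 passed (limma, adjusted p = 0.00883), as it did among brighter probe sets alone (adjusted p = 0.0415). Without replicate 2 its adjusted p was 0.299 (limma). Leaving out replicate 2 cannot move this difference and only leaves fewer arrays for the variance estimate.

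Abhd5 was lowest in experiment 3 with both bright probe sets. Experiment 3 minus experiment 1 was -0.35 ± 0.10 for 1417566_at and -0.32 ± 0.10 for 1417565_at (limma, adjusted p = 0.134 and 0.161), and with an intensity trend both passed (adjusted p = 0.00946 and 0.0158). Among brighter probe sets alone they did not (adjusted p = 0.0575 and 0.0692), nor without replicate 2 (adjusted p = 0.309 and 0.304). With the mean of its probe sets, Abhd5 was at -0.19 (limma, adjusted p = 0.234). The second probe set of Aqp7 was also lower in experiment 3 than in experiment 1, at -0.50 ± 0.11 (limma, adjusted p = 0.0769), and its adjusted p was 0.0339 with an intensity trend, 0.036 among brighter probe sets and 0.27 without replicate 2. The leading Aqp7 probe set was at -0.10 ± 0.13 for the same comparison, so the probe sets of this gene disagreed. The second Pnpla2 probe set was at -0.42 ± 0.11 (limma, adjusted p = 0.118) and the leading one at -0.03 ± 0.11. Pnpla3 was the only gene whose leading probe set had a positive difference there, at 0.24 ± 0.09 (limma, adjusted p = 0.247). Positive too were 1431331_at of Mgll (0.08), near the median level, and the dim probe set 1447548_at of Abhd5 (0.09). Lipe was at -0.04 ± 0.10, with a 95% interval from -0.28 to 0.20.

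By limma, 0 of the 15 probe sets passed for experiment 3 minus experiment 1, against 3.05% of all probe sets (1.18% lower, 1.87% higher). For experiment 2 minus experiment 1 it was 0 of 15, against 0.52% (0.0466% lower, 0.473% higher), and for experiment 3 minus experiment 2 it was 0 of 15, against 0.0355%, all of them higher. An experiment is 1 culture pair, so these tests compare the 3 experiments and no condition. The Gapdh 3' minus 5' control signal reflects how whole the RNA was. It was -0.05 to -0.01 in experiments 3 and 2 and 0.19 to 0.23 in experiment 1. The same measure for beta-actin was 0.75 to 0.76 in experiment 1 and 0.61 to 0.62 in experiment 2. In experiment 3 the beta-actin measure was 0.62 in the irradiated and 0.72 in the control culture. The part of RNA quality in these differences was not tested. Of the sum of squares over the 6 arrays, experiment took 83.1% for Pnpla3, 79.9% for G0s2 and 74.6% for Abhd5, and irradiation 85.3% for Pnpla2, 75.5% for Aqp7 and 58.2% for Mgll.

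**Figure D4:**
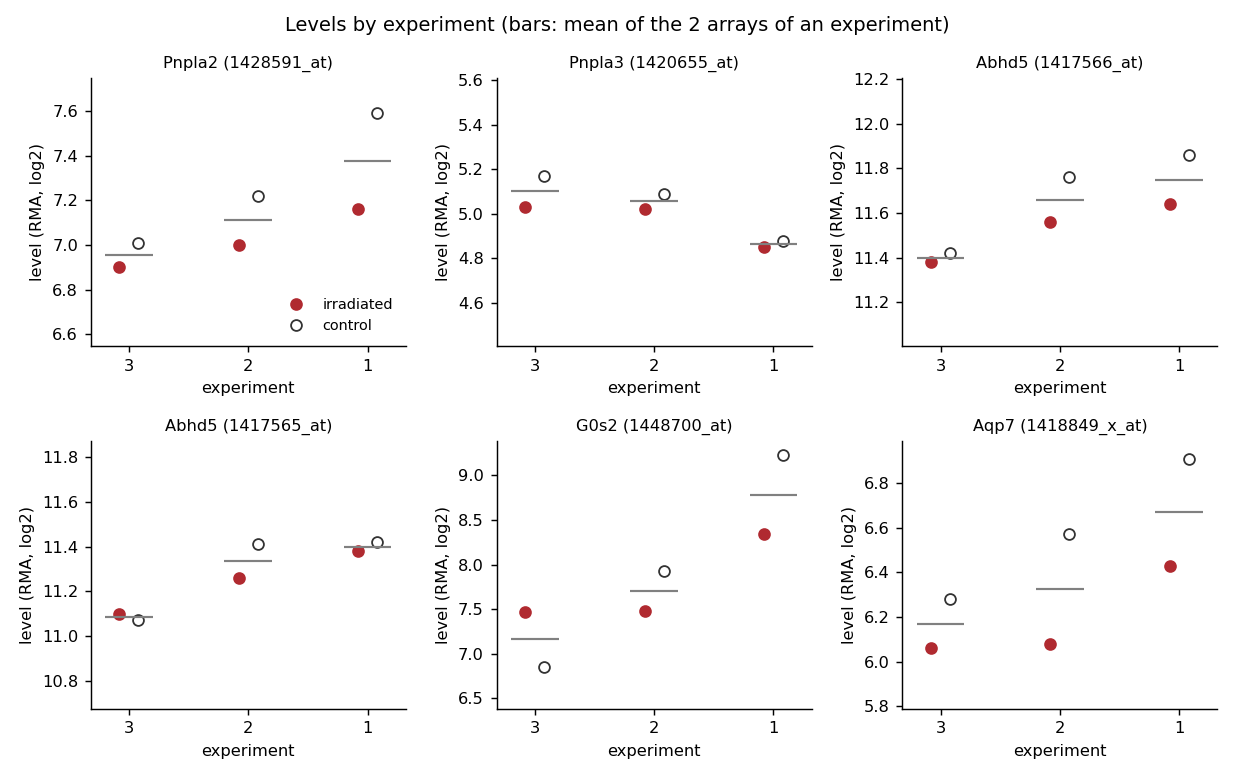
Level (RMA, log2) by experiment for 6 probe sets, with irradiated cultures as filled and control cultures as open circles and the mean of the 2 arrays as a bar. The 6 were picked for the largest differences between experiments 3 and 1 in either direction. The leading probe sets of Pnpla2, Lipe, Mgll and Aqp7 differed less and are not shown. The G0s2 axis spans a wider range than the others. G0s2 and both Abhd5 probe sets are highest in experiment 1 and lowest in experiment 3, and Pnpla3 runs the other way.

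The genes most alike over the 6 arrays were taken for the 3 members whose leading probe set spans at least 0.5, among 11733 genes. For G0s2 they were Fam53b, Cpox and Actr6, with Pearson r of 0.996, 0.995 and 0.993, and 4.9% of the genes had r over 0.9. Fam53b spanned 1.00 over the arrays, against 2.38 for G0s2, while Cpox and Actr6 spanned 0.21 and 0.24. For Aqp7 they were Ppcs, Mettl23 and Bcap31 (r = 0.993, 0.987 and 0.982), and for Mgll Aldh18a1, Atg12 and Cables1 (r = 0.987, 0.982 and 0.979). The first 3 spanned 0.34, 0.11 and 0.20, against 0.72 for Aqp7. The last 3 spanned 0.37, 0.23 and 0.11, against 0.58 for Mgll. For Aqp7 0.563% and for Mgll 0.511% of the genes had r over 0.9. The 6 arrays share 3 pairs, and these values are descriptions.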

How the data were processed

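The authors deposited 1 log2 level per probe set and array, and the submitters' processing notes name RMA, affy and limma without versions or roles. RMA normalizes quantiles between arrays, so all differences are relative to the other transcripts. No header states the log base, and base 2 was assumed because RMA yields it. The scanner files were not used here. After removal of 64 control probe sets, 45037 were fitted with limma 3.58.1 in R 4.3.3 (group plus experiment as a fixed block, two-sided, Benjamini-Hochberg over all probe sets, threshold 0.05), tested on simulated data. Precision is limited by having 3 arrays in each arm. Genes were named from the platform annotation, and a gene with several probe sets is led by the one with the highest mean level. Promoter windows come from RefSeq (GRCm38.p6), which holds a window for each of the 7 members, and no protein sequences were used.

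The pairing of cultures comes from the series design. Deviations from group means correlated with r = 0.63, 0.14 and 0.505 across probe sets in experiments 1, 2 and 3, and irradiated culture 2 had r = 0.15 with control culture 3. Replicates are independent experiments per the design text. The members and lists were chosen with earlier results of these data known. From each related list, the genes named are the 3 with the smallest unadjusted p for irradiated minus control and the 2 with the smallest for experiment 3 minus experiment 1. Genes named for likeness are the 3 with the highest Pearson r over the 6 arrays to a member whose leading probe set spans at least 0.5, among genes at or above the median probe set. Alternatives were no block, a random block, other normalizations, a filter on dim probe sets, other variance priors, array weights, gene means and leaving out each experiment.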

Additional observations from a re-analysis of the deposited data

How the results depend on the processing

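For irradiated minus control, 168 values of the member probe sets under the 12 alternatives kept their direction, and 0 passed the test. The 2 exceptions came without replicate 1, where G0s2 was at 0.085 (range over left-out experiments -0.67 to 0.085) and Abhd5 1447548_at at 0.005 (range -0.065 to 0.005). In this balanced design no block, a random block, the dim filter, an intensity trend and a robust prior cannot move the fitted difference. Under these settings the signs were fixed in advance, here and in the count of leading differences below, and only the test could change. With no replicate block, which ignores the pairing, 0 of 45037 probe sets passed, as in every other setting run, with 1297 at an unadjusted p under 0.05 by limma, against 2237 with the block. All 7 leading differences were negative under each alternative except without replicate 1 (6), and their median ran from -0.33 to -0.155, the last with gene means, which put Lipe at -0.08 against -0.35, Mgll at -0.16 against -0.30 and Abhd5 at -0.08 against -0.15. This count was added after seeing the data.

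Between experiments, the dim filter gave 363, 2496 and 55 calls among 22830 probe sets for 2 minus 1, 3 minus 1 and 3 minus 2. An intensity trend gave 670, 3534 and 275 among 45037, and gene means 151, 750 and 33 among 18193 genes. As reported, the counts were 234, 1374 and 16 among 45037. Settings with unlike totals cannot be ranked by these counts. Leaving out the experiment that is not in the contrast, 0 passed in each by limma, with 4687, 6581 and 3139 at an unadjusted p under 0.05. In this balanced design that setting cannot move the fitted difference. It only leaves fewer arrays for the variance estimate, so it does not show that a difference depends on the experiment left out. Signs turned for Lipe 1432180_at (2 minus 1, -0.005, quantile normalization), Aqp7 (2 minus 1, -0.09, gene means) and Abhd5 1447548_at (3 minus 2, 0.015, median centring). The cause was not tested.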

Other observations

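Between experiments 3 and 1, some upstream and droplet genes of lipolysis passed the test, while 0 of the 15 member probe sets did. Of the 20 measured genes of lipolysis signalling, 3 passed for experiment 3 minus experiment 1, all lower, against 1.18% of all probe sets called lower. At or above the median level, where 19 of the 20 lie, 412 of 22519 probe sets were called lower. Prkar2b, the main regulatory subunit of protein kinase A in fat cells, stood at 10.47 and 10.59 in the irradiated and control culture of experiment 3, against 11.09 and 11.29 in experiment 1, a difference of -0.66 ± 0.09 (limma, adjusted p = 0.022). The insulin receptor gene Insr was at -0.51 ± 0.09 (limma, adjusted p = 0.0492). Hcar1, named here after its values were seen, was at -0.55 ± 0.10 (limma, adjusted p = 0.0499).

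Of the 11 droplet genes 1 passed, Hilpda, which was higher, against 1.87% of all probe sets called higher. At or above the median level, where 10 of the 11 lie, 735 of 22519 were called higher. Hilpda stood at 10.34 and 10.78 in the irradiated and control culture of experiment 3, against 9.52 and 9.60 in experiment 1, a difference of 1.00 ± 0.13 (limma, adjusted p = 0.0173). Hilpda and G0s2 both encode inhibitors of ATGL, and over these experiments their levels ran in opposite directions. Among the 16 other hydrolases and the 12 genes of glycerol and fatty acid handling 0 passed. Pnpla7 and Pnpla8 were at -0.25 ± 0.10 and -0.31 ± 0.10, and Acsl3 and Acsl5 at 0.66 ± 0.17 and -0.21 ± 0.10. Without replicate 2, 0 probe sets passed for experiment 3 minus experiment 1 by limma, with 6581 at an unadjusted p under 0.05. That setting leaves the fitted differences unchanged and has fewer arrays for the variance estimate.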
